A study of Bos taurus with 19 samples.

Results

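The insulin-like growth factor (IGF) system was followed in the theca interna of bovine antral follicles through 10 genes: the ligands IGF1 and IGF2, the receptors IGF1R and IGF2R, the binding proteins IGFBP2, IGFBP3, IGFBP4, IGFBP5 and IGFBP6, and PAPPA, a protease that cuts binding proteins. These genes were chosen by name. They were read from every probe set whose annotation gives 1 of these symbols alone, which made 20 of the 24127 probe sets and 10 of the 9156 genes of the array. RNA was hybridised to 19 one-colour Affymetrix GeneChip bovine arrays. Values below are log2 signals, so that a difference of 1 is a 2-fold change. Probe sets of a gene are named by the end of their array identifier (S1, S2 or A1).

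The follicles came from non pregnant Bos taurus heifers. After a piece of wall had been taken for histology and the granulosa cells scraped off, the theca interna was dissected. There were 4 arrays of large healthy follicles, over 9 mm in diameter, and 5 of small atretic follicles. A further 10 arrays were of small healthy follicles, of which 5 had rounded and 5 had columnar granulosa cells at the basal lamina. Small follicles measured 3 to 5 mm. Atretic follicles are follicles in regression. By the sample records, RNA of large follicles was extracted with Trizol and Qiagen RNeasy columns, RNA of small healthy follicles with the Qiagen RNeasy mini kit and RNA of small atretic follicles with the RNAqueous Micro kit. The records give 2 to 5 µg of RNA for labelling of the healthy groups and 250 ng for the atretic group, whereas the study's methods describe one extraction and a smaller amount for every thecal sample. Follicle class and RNA preparation therefore cannot be told apart by the records. No source says that each array was from a separate animal, so p-values measure the spread between follicles.

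IGF1 and IGF2 are secreted peptides that signal through IGF1R, a receptor tyrosine kinase. IGF2R, which also carries mannose 6-phosphate tagged lysosomal enzymes, takes up IGF2 for degradation and does not signal like IGF1R. The binding proteins hold the ligands outside the cell and extend or limit their action, and PAPPA frees ligand by cutting IGFBP4 and IGFBP5. In follicles, IGFs act with the gonadotropins on steroid synthesis and growth of granulosa and thecal cells.

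The labelled tissue was checked against marker genes. All 7 steroidogenic theca markers had group means above a log2 signal of 3 in every group, and INSL3, a peptide hormone of thecal cells, ranged from 11.9 to 12.5 on large, 10 to 12.4 on atretic, 11.7 to 12.4 on rounded and 11.7 to 12.3 on columnar arrays. Of 12 granulosa cell markers, 10 had a mean above 3 on large arrays and 8 in each of the other groups. The follicle-stimulating hormone receptor FSHR stayed below 3 on all 19 arrays. Aromatase, CYP19A1, the granulosa cell enzyme that makes oestradiol, was above 3 on large 2, 3 and 4, at 5.8, 3.7 and 3.3, and on columnar 1, at 3.9. The study judged 1 large sample to hold granulosa cells, from relatively high CYP19A1, FSHR, INHBA and FST, and left it out. In tissue RNA, fewer cells of a type and less RNA per cell cannot be told apart.

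IGFBP3, which carries most circulating IGF, was the IGF gene that differed by 2-fold or more between large and small healthy follicles. Its S2 probe set read 8.6, 9.2, 8.0 and 7.9 on the 4 large arrays. It read 7.2, 7.3, 7.9, 7.0 and 7.6 on rounded arrays and 7.6, 7.7, 7.0, 7.1 and 7.7 on columnar arrays. Thus 3 of 4 large arrays stood above every small healthy array, and the fourth equalled the highest of them, rounded 3.

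Its S1 probe set read 8.3, 9.7, 8.1 and 8.0 on large arrays. It read 7.3, 7.4, 7.9, 6.8 and 7.5 on rounded arrays and 7.6, 7.3, 7.1, 6.7 and 7.7 on columnar arrays. Here large and small healthy arrays did not overlap, which was so, with large arrays higher, for 1.09% of all tested probe sets. Large 2 was the highest array on both probe sets.

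The mean of IGFBP3 on the S2 probe set was 8.43 ± 0.60 in large (SD, n = 4) and 7.41 ± 0.33 in small healthy follicles (SD, n = 10). The difference was 1.02 on the log2 scale, a 2.02-fold change (SE 0.22, 95% interval 0.54 to 1.49), with a Benjamini-Hochberg adjusted p of 0.0269 by limma and an exact permutation p of 0.00200, two-sided. On the S1 probe set the means were 8.53 ± 0.79 in large (SD, n = 4) and 7.33 ± 0.38 in small healthy follicles (SD, n = 10). That difference was 1.20, or 2.29-fold (SE 0.28, 95% interval 0.61 to 1.78, adjusted p = 0.0313), and its exact permutation p of 9.99e-04, two-sided, is the smallest that 1001 splits can give. IGFBP3 belongs to the genes that the study listed from these same follicles, so its direction is not independent evidence.

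The size of the IGFBP3 difference rested in part on large 2, the array with the most CYP19A1. Without large 2 the differences were 0.76 on the S2 and 0.80 on the S1 probe set, with adjusted p of 0.0666 and 0.0626, and neither probe set was called. Over all 14 repeats with 1 array left out, the S2 probe set lost its call in 6 and the S1 probe set in 2. Large 1, with CYP19A1 at 1.9, had IGFBP3 at 8.6 and 8.3, above all small healthy arrays on both probe sets. Columnar 1, with CYP19A1 at 3.9, had IGFBP3 at 7.6 and 7.6, inside the range of the other small healthy arrays. The mean signal over the granulosa cell markers ran from 6.01 to 7.33 on large and from 6.03 to 6.8 on small healthy arrays. At the adjusted p, 1 of the 10 tested granulosa cell markers was higher in large follicles and 1 lower, and 0 were called. Of all tested genes, 2.96% were higher at that p. INHBA averaged 8.35 on large, 7.14 on rounded and 7.48 on columnar arrays, with 10.3 on large 2 and 9.1 on columnar 1. AMH went the other way, at 5.25, 5.88 and 5.94. The part of granulosa cell RNA in the IGFBP3 difference was not tested beyond these values.

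**Figure D1:**
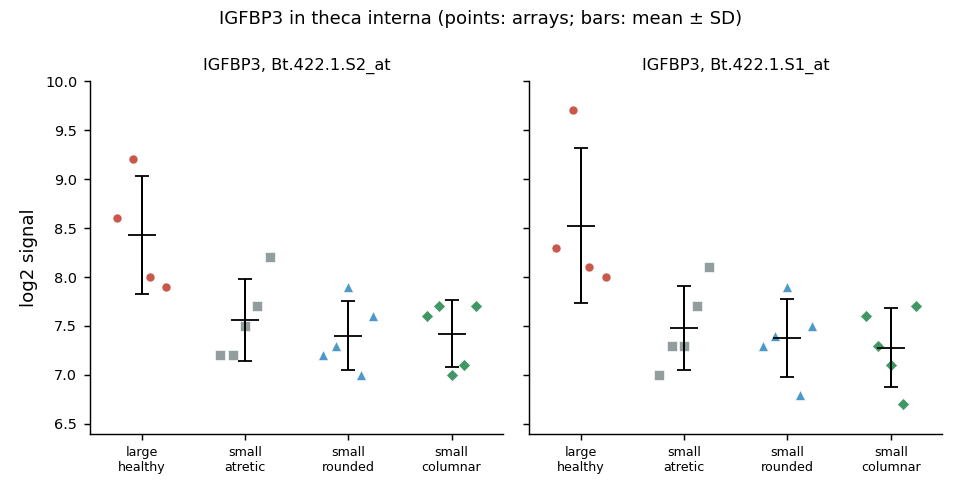
IGFBP3 log2 signal (vertical axis) on each array of large healthy, small atretic, small rounded and small columnar follicles, for both probe sets; points are arrays and bars are the mean ± SD of 4 large or 5 other arrays. Large arrays lie between 7.9 and 9.2 on the left and between 8.0 and 9.7 on the right, and atretic arrays reach up to 8.2 and 8.1.

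**Figure D2:**
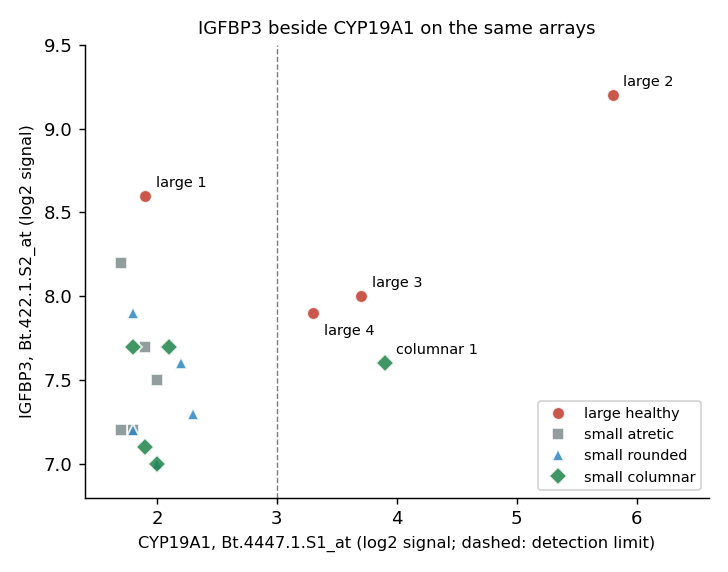
IGFBP3 log2 signal (vertical axis, S2 probe set) against CYP19A1 log2 signal (horizontal axis) on the same 19 arrays, with symbols for the 4 follicle groups and a dashed line at the detection limit of 3. Large 2 is highest on both axes, large 1 has IGFBP3 at 8.6 with CYP19A1 at 1.9, and columnar 1 has IGFBP3 at 7.6 with CYP19A1 at 3.9.

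Markers of some other cell types also moved between large and small healthy follicles. Among all tested genes, 0.896% were called and 2.96% were higher at the adjusted p. The smooth muscle and pericyte list averaged 7.57 on large arrays (7.27 to 8.26) and 6.96 on small healthy arrays (6.51 to 7.57), and 1 of its 7 genes was called, the muscle filament gene DES. The endothelial list averaged 5.71 (5.39 to 6.0) on large and 5.31 (5.04 to 5.53) on small healthy arrays, and 1 of its 6 tested genes passed the adjusted p below 2-fold. The immune list averaged 5.05 (4.77 to 5.43) on large and 4.48 (3.83 to 5.05) on small healthy arrays, and 1 of its 6 genes passed the adjusted p below 2-fold, AIF1. The fibroblast list averaged 10.3 on large and 10.1 on small healthy arrays, with 2 of 6 genes higher at the adjusted p, COL1A1 and COL1A2. The steroidogenic theca list averaged 8.57 on large and 8.46 on small healthy arrays, and 0 of its 7 genes passed. Of the surface epithelium list, 0 of 2 tested genes passed. Poly-A control transcripts, added before labelling, averaged 6.02 ± 0.29 (SD, n = 4) on large and 4.68 ± 0.25 (SD, n = 10) on small healthy arrays, whereas the differences between the 3′ and 5′ probe sets of actin and GAPDH had exact permutation p of 0.501 and 0.496. The part of these marker and control differences in the IGFBP3 result was not tested.

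Of the 20 IGF probe sets, 13 from 8 genes were detected, with signals over 3 for 50% or more of the arrays in any follicle group compared, and were tested. The other 7 were above 3 on no array, among them every probe set of IGFBP2 and PAPPA. A call needed both an adjusted p below 0.05 and a change of 2-fold or more. Between large and small healthy follicles, 2 of the 13 were called, both of IGFBP3, beside 0.706% of all 15570 tested probe sets, and 0.629% in the higher direction. At an unadjusted p under 0.05 stood 8 of the 13, 6 higher and 2 lower, beside 24.4% of all probe sets. Among these 8, IGF1R was tested only through its large arrays and an IGF1 probe set only through its small healthy arrays. The median difference was 0.18 over the 13 and -0.01 over all tested probe sets. For 11 of the 13, all but those of IGFBP3, the 95% interval excluded a 2-fold change in either direction, as it did for 91.1% of all.

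**Figure D3:**
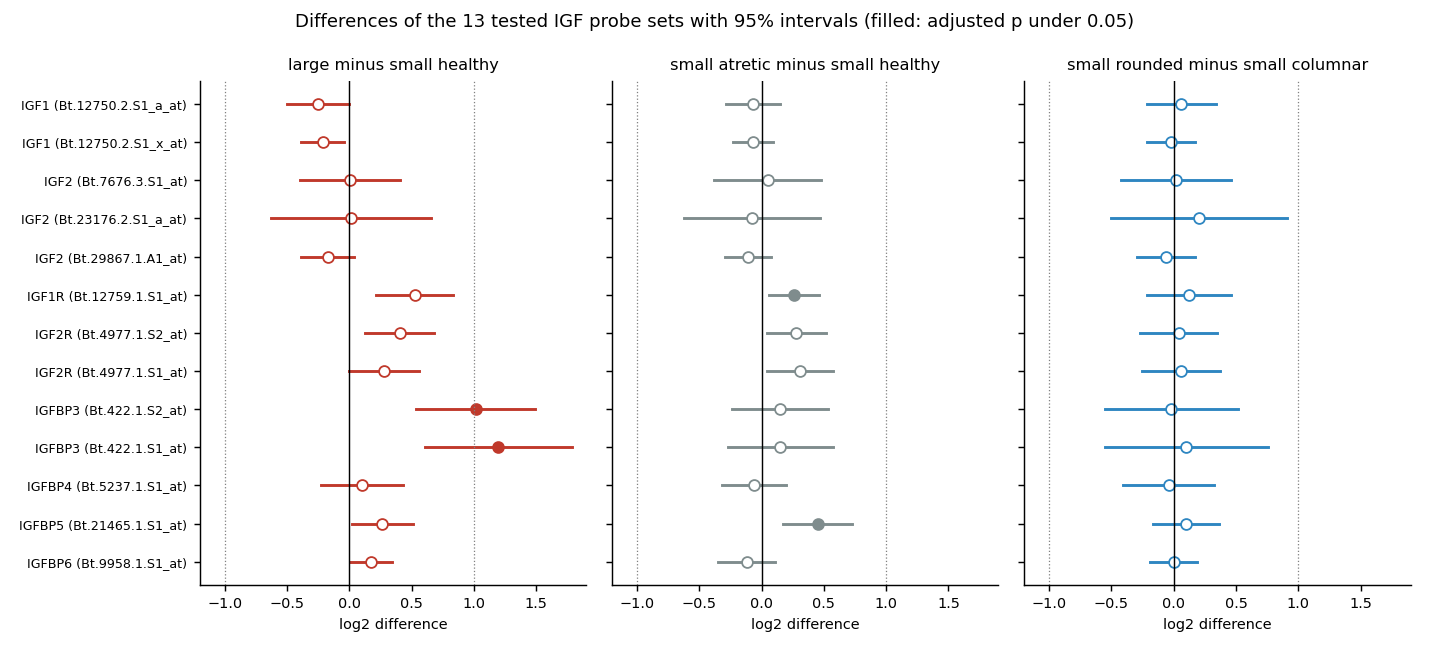
Log2 difference (horizontal axis) of each of the 13 tested IGF probe sets (rows) with its 95% interval, for large minus small healthy, small atretic minus small healthy, and small rounded minus small columnar follicles; filled points have an adjusted p under 0.05 and dotted lines mark 2-fold. The IGFBP3 probe sets are filled on the left, at 1.02 and 1.20, and IGF1R and IGFBP5 are filled in the middle, at 0.26 and 0.45.

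Among the ligands, IGF2 was detected on every array and did not pass the test in any comparison. Its brightest probe set read 9.7, 10.4, 10 and 9.8 on large arrays and 9.7, 10.9, 9.9, 9.9 and 9.7 on atretic arrays. It read 9.9, 9.6, 10.8, 9.6 and 10 on rounded arrays and 10, 10.2, 10, 9.9 and 9.7 on columnar arrays. All 4 groups overlapped, and rounded 3 and atretic 2 stood highest.

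IGF2 averaged 9.98 ± 0.31 (SD, n = 4) in large, 10 ± 0.50 (SD, n = 5) in atretic and 9.97 ± 0.35 (SD, n = 10) in small healthy follicles on that probe set. Large minus small healthy was 0.01 (95% interval -0.39 to 0.40, adjusted p = 0.988), and atretic minus small healthy was 0.05 (95% interval -0.38 to 0.48, adjusted p = 0.865). The next IGF2 probe set ran from 5.7 to 7.5 on large, 6.0 to 7.5 on atretic and 6.3 to 7.9 on small healthy arrays. Its differences were 0.02 for large (adjusted p = 0.980) and -0.08 for atretic follicles (adjusted p = 0.830).

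IGF2 varied widely between follicles of the same group. The SD within groups was 0.40 on the brightest and 0.59 on the next probe set, above 86.1% and 95.4% of the 15722 probe sets detected in at least 1 group, whose median SD was 0.22. Both probe sets placed the same arrays high or low. Over the 19 arrays, as a description, Pearson's r was 0.841 and Spearman's rho 0.817, and r was 0.769 without atretic 2 and rounded 3. The dimmest tested IGF2 probe set, A1, lay near the detection limit at 3.08 on average in large, 3.14 in atretic and 3.25 in small healthy follicles, and its r with the brighter pair was 0.218 and 0.0196.

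**Figure D4:**
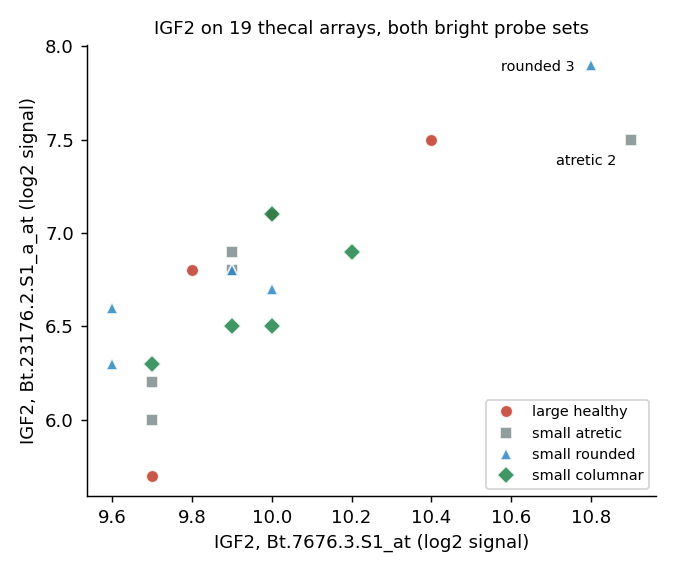
Log2 signal of the less bright IGF2 probe set (vertical axis) against that of the brightest (horizontal axis) on the 19 arrays, with symbols for the 4 follicle groups. The groups lie among each other, and rounded 3, at 10.8 and 7.9, and atretic 2, at 10.9 and 7.5, are the arrays farthest to the right.

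IGF1 gave low signals. Its brightest probe set read 4.5, 4.5, 4.2 and 4.3 on large arrays and 4.6, 4.6, 4.7, 4.4 and 4.5 on atretic arrays. It read 4.5, 4.6, 4.7, 4.9 and 4.6 on rounded arrays and 4.9, 4.4, 4.4, 4.9 and 4.4 on columnar arrays. The lowest 2 arrays of all 19, large 3 and large 4, were both of large follicles.

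IGF1 on its brightest probe set averaged 4.38 ± 0.15 in large (SD, n = 4) and 4.63 ± 0.21 in small healthy follicles (SD, n = 10), a difference of -0.26 (SE 0.12) that did not pass (adjusted p = 0.196, exact permutation p = 0.0599). On a probe set whose identifier ends in x, which marks probes that may cross-hybridise, it averaged 2.88 ± 0.10 in large (SD, n = 4) and 3.09 ± 0.12 in small healthy follicles (SD, n = 10), a difference of -0.22 (adjusted p = 0.131, exact permutation p = 0.0120). That probe set was above 3 on 0 of 4 large, 3 of 5 rounded and 3 of 5 columnar arrays. It was thus tested against large follicles only because of the small healthy groups, in which it was higher. Atretic minus small healthy was -0.07 on both of these IGF1 probe sets (adjusted p = 0.617 and 0.480). The remaining 2 IGF1 probe sets were below 3 on all arrays.

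Of the receptors, IGF1R lay around the detection limit. Its S1 probe set read 2.9, 3.4, 3.8 and 3.6 on large arrays and 3.2, 3.2, 3.2, 3.1 and 3.1 on atretic arrays. It read 3.3, 2.9, 2.9, 3.0 and 2.7 on rounded arrays and 3.0, 2.8, 2.6, 3.0 and 2.8 on columnar arrays. All 5 atretic arrays and 3 of 4 large arrays were above 3, against 1 of 10 small healthy arrays, so this probe set was tested only because of the groups in which it was high.

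IGF1R on the S1 probe set was higher in atretic than in small healthy follicles, at 3.16 ± 0.05 (SD, n = 5) and 2.9 ± 0.19 (SD, n = 10), a 1.20-fold change (difference 0.26, SE 0.09, adjusted p = 0.0446, exact permutation p = 0.0170). With 1 array left out in turn the adjusted p ran from 0.00862 to 0.0918 and did not pass in 12 of 15 repeats. In large follicles it averaged 3.43 ± 0.39 (SD, n = 4), which was 0.53 above small healthy follicles (SE 0.15, 95% interval 0.22 to 0.83, adjusted p = 0.0596, exact permutation p = 0.00999). With 1 array left out in turn that difference ran from 0.40 to 0.70 and the adjusted p from 0.00786 to 0.202, and it passed without large 1 (0.70) and without rounded 1 (0.57, adjusted p = 0.0297) but in none of the other 12 repeats.

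The other IGF1R probe set, A1, went the opposite way, below the detection limit. It read 2.5, 2.4, 2.3 and 2.3 on large and 2.4, 2.4, 2.6, 2.4 and 2.6 on atretic arrays, against 2.5 to 2.9 with a median of 2.65 on small healthy arrays. In a fit with no filter on low signals the difference was -0.29 for large (adjusted p = 0.0485) and -0.18 for atretic follicles (adjusted p = 0.0605). The probe sets of IGF1R therefore disagreed on its direction.

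IGF2R was bright, and its probe sets ran together over the arrays (r = 0.887, rho = 0.857). On the S2 probe set it read 9.2, 9.6, 9.7 and 9.6 on large arrays and 9.3, 9.6, 9.3, 9.3 and 9.5 on atretic arrays. It read 9.3, 9.0, 9.5, 9.2 and 8.7 on rounded arrays and 9.0, 9.0, 9.0, 9.2 and 9.3 on columnar arrays. Thus 3 of 4 large arrays and 1 of 5 atretic arrays exceeded every small healthy array.

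IGF2R on the S2 probe set averaged 9.53 ± 0.22 (SD, n = 4) in large, 9.40 ± 0.14 (SD, n = 5) in atretic and 9.12 ± 0.23 (SD, n = 10) in small healthy follicles. The difference of 0.41 for large (SE 0.13, adjusted p = 0.0926, exact permutation p = 0.0140) and that of 0.28 for atretic follicles (SE 0.11, adjusted p = 0.0621, exact permutation p = 0.0253) did not pass the adjusted test. With 1 array left out in turn, the first ran from 0.35 to 0.51, with adjusted p from 0.0442 to 0.251. It passed in 1 of 14 repeats, without large 1. The other ran from 0.23 to 0.32, with adjusted p from 0.0238 to 0.155. It passed in 2 of 15 repeats, without rounded 1 (0.30, adjusted p = 0.0485) and without rounded 3 (0.32, adjusted p = 0.0238). On the S1 probe set the differences were 0.28 (adjusted p = 0.208) and 0.31 (adjusted p = 0.0685) for large and atretic follicles. The atretic difference passed in 1 of 15 repeats, at 0.36 without rounded 3 (adjusted p = 0.0264). Over these repeats it ran from 0.23 to 0.36, with adjusted p up to 0.190. With all arrays fitted, the highest upper bound of the 95% intervals of these IGF2R differences was 0.68 on the log2 scale.

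**Figure D5:**
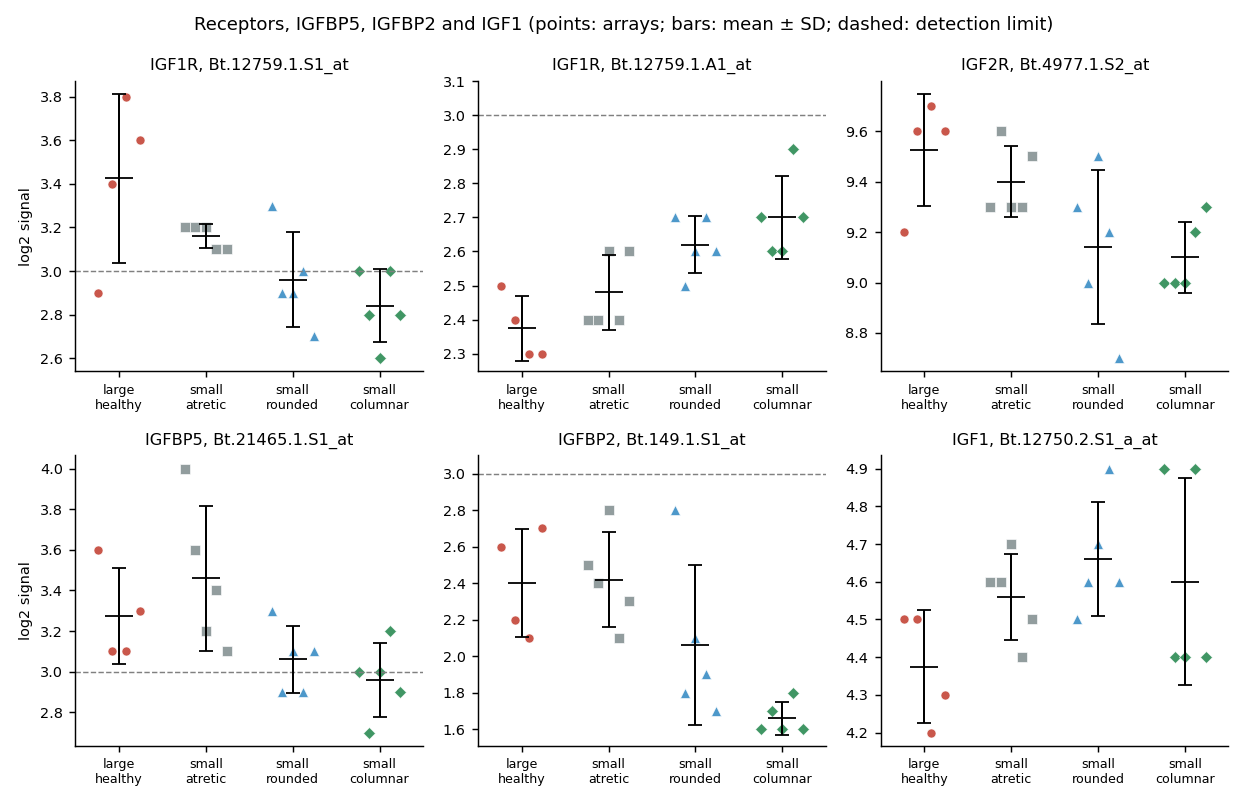
Log2 signal (vertical axes, each with its own range) of both IGF1R probe sets, IGF2R, IGFBP5, IGFBP2 and IGF1 on each array of large healthy, small atretic, small rounded and small columnar follicles; points are arrays, bars the mean ± SD, and the dashed line the detection limit of 3 where it lies in range. The IGF1R probe sets run in opposite directions, and IGFBP2 stays below 3 on all arrays.

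Of the other binding proteins, IGFBP5, which binds to matrix as well as to IGFs, was the one that passed the test in atretic follicles. It read 4.0, 3.6, 3.2, 3.4 and 3.1 on atretic and 3.6, 3.1, 3.1 and 3.3 on large arrays. It read 3.3, 2.9, 3.1, 2.9 and 3.1 on rounded and 3.0, 2.7, 3.0, 3.2 and 2.9 on columnar arrays. Atretic 1, 2 and 4 were above all small healthy arrays.

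IGFBP5 averaged 3.46 ± 0.36 (SD, n = 5) in atretic and 3.01 ± 0.17 (SD, n = 10) in small healthy follicles, a 1.37-fold change (difference 0.45, SE 0.13, 95% interval 0.18 to 0.72, adjusted p = 0.0175, exact permutation p = 0.00500). Without atretic 1 the difference was 0.32 (adjusted p = 0.0540). In large follicles IGFBP5 averaged 3.28 ± 0.24 (SD, n = 4), 0.27 above small healthy follicles (SE 0.11, adjusted p = 0.175). Without large 1 that difference was 0.16 (adjusted p = 0.407).

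IGFBP4, a substrate of PAPPA, read 8.0, 8.5, 8.7 and 8.4 on large and 8.3, 8.3, 8.2, 8.1 and 8.3 on atretic arrays, against 7.9 to 8.7 with a median of 8.4 on small healthy arrays. Its differences of 0.10 for large (95% interval -0.23 to 0.43, adjusted p = 0.711) and -0.06 for atretic follicles (95% interval -0.32 to 0.20, adjusted p = 0.721) did not pass. IGFBP6, which prefers IGF2, read 9.9, 9.8, 10 and 9.8 on large and 9.6, 9.1, 9.8, 9.9 and 9.5 on atretic arrays, against 9.5 to 9.9 with a median of 9.7 on small healthy arrays. It was 0.18 higher on average in large (SE 0.08, adjusted p = 0.192) and 0.12 lower in atretic than in small healthy follicles (SE 0.11, adjusted p = 0.399). Atretic 2, the highest array on the brightest IGF2 probe set, had the least IGFBP6. On the next IGF2 probe set rounded 3 was highest, at 7.9, and atretic 2 read 7.5.

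IGFBP2, which like IGFBP3 binds both ligands, was below the detection limit on every array. It read 2.6, 2.2, 2.1 and 2.7 on large and 2.5, 2.4, 2.8, 2.1 and 2.3 on atretic arrays. It read 2.8, 1.8, 2.1, 1.9 and 1.7 on rounded and 1.6, 1.7, 1.6, 1.8 and 1.6 on columnar arrays. Rounded 1, at 2.8, was thus as high as the highest atretic array. In the fit with no filter IGFBP2 was 0.54 above small healthy follicles in large (adjusted p = 0.119, exact permutation p = 0.0220) and 0.56 above them in atretic follicles (adjusted p = 0.0275, exact permutation p = 0.0123), and at this signal the size of a difference is not reliable.

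PAPPA was likewise below 3 on all arrays with both probe sets. On the S1 probe set it read 2.4, 2.0, 2.0 and 2.0 on large and 2.0, 2.1, 2.4, 2.2 and 2.1 on atretic arrays, against 2.0 to 2.5 with a median of 2.4 on small healthy arrays. In the unfiltered fit the differences were -0.29 for large (adjusted p = 0.112) and -0.23 for atretic follicles (adjusted p = 0.0589).

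In the comparison of small atretic with small healthy follicles, 0 of the 13 tested IGF probe sets were called, beside 3.68% of all 15470 tested. At an adjusted p under 0.05 with no limit on the fold change, IGFBP5 and IGF1R gave 2 of the 13, IGF1R being tested only through its atretic arrays, beside 31.9% of all, and the unadjusted p was under 0.05 for 4 of the 13, beside 45.2%. All 13 intervals excluded a 2-fold change, as did 87.8% of those of all probe sets. IGFBP3 was not among the genes that passed, with 7.2, 7.2, 7.5, 7.7 and 8.2 on atretic arrays for the S2 probe set and a difference of 0.15 from small healthy follicles (95% interval -0.24 to 0.54, adjusted p = 0.538). On the S1 probe set the difference was also 0.15 (adjusted p = 0.579).

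Levels of some cell type markers differed as well between atretic and small healthy follicles. Among all tested genes, 18.3% were higher and 19.1% lower at the adjusted p, and 4.67% were called. The immune marker list averaged 5.95 (5.10 to 6.57) on atretic and 4.48 (3.83 to 5.05) on small healthy arrays, with 5 of its 6 genes called higher. CD68, a lysosomal protein of macrophages, ran from 4.8 to 7.6 on atretic arrays, against 3.4 to 5.6 on rounded and 3.0 to 4.3 on columnar arrays. The steroidogenic theca list averaged 7.86 (6.41 to 8.71) on atretic and 8.46 (7.63 to 8.97) on small healthy arrays, and CYP11A1, the enzyme that opens steroid synthesis, was lower by a log2 difference of -1.31 (adjusted p = 0.00529). The smooth muscle and pericyte list averaged 7.33 (6.76 to 7.81) on atretic and 6.96 (6.51 to 7.57) on small healthy arrays, with 2 of its 7 genes higher at the adjusted p, MYH11 and DES, of which MYH11 was called. The granulosa cell list averaged 5.98 (5.32 to 6.62) on atretic and 6.33 (6.03 to 6.8) on small healthy arrays. Of its 8 tested genes INHBA and AMH were lower, INHBA by a called difference of -1.47, and GATM was higher. The fibroblast list had 1 of 6 genes higher at the adjusted p. The endothelial list averaged 5.43 on atretic and 5.31 on small healthy arrays, and 0 of its 6 tested genes passed. The part of these marker differences in the IGFBP5 and IGF1R differences was not tested.

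Rounded and columnar follicles were compared to see whether the shape of the granulosa cells goes with thecal expression. None of the 13 IGF probe sets was called (0 of 13), as none was among all 15570 (0%), and 0 of the 13 had an unadjusted p under 0.05 by limma, beside 2.31% of all. The largest difference was 0.20, for IGF2 on its less bright probe set (95% interval -0.51 to 0.91). With 1 array left out in turn the largest difference ran from 0.16 to 0.34, at 0.34 without rounded 4 and 0.31 without columnar 1, and no probe set was called. All 13 intervals excluded a 2-fold change, as did 95.6% of those of all tested probe sets. The smallest adjusted p was 0.996, the same as over all tested probe sets. Below the detection limit, IGFBP2 averaged 2.06 in rounded and 1.66 in columnar follicles (unfiltered fit, adjusted p = 0.980, exact permutation p = 0.0397). The lowest p that an exact test of 5 against 5 arrays can reach here is 0.00794.

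With all 4 groups in 1 fit, the groups were put in order of their means for each tested probe set. By limma, 0 of the 39 pairs of neighbours in these orders passed (smallest adjusted p = 0.111), and the 2 with an unadjusted p under 0.05 were large and atretic follicles for the IGFBP3 probe sets. IGFBP3 ran large, atretic, columnar, rounded on the S2 probe set, at 8.43, 7.56, 7.42 and 7.4, and large, atretic, rounded, columnar on the S1 probe set, at 8.53, 7.48, 7.38 and 7.28. Large minus atretic was 0.87 and 1.05 for the IGFBP3 probe sets (adjusted p = 0.121 and 0.111). Large minus columnar passed for both (1.01 and 1.25, adjusted p = 0.0462 and 0.0389), as it did for 3.31% of all probe sets. Large minus rounded passed for neither (1.03 and 1.15, adjusted p = 0.0908 and 0.107), beside 0.305% of all. IGF1R on the S1 probe set ran large, atretic, rounded, columnar, and large minus columnar was 0.59 (adjusted p = 0.0390) on a probe set that entered the fit only through its large and atretic arrays. IGFBP5 ran atretic, large, rounded, columnar, and atretic minus columnar was 0.50 (adjusted p = 0.0224), a contrast in which 29.6% of all probe sets passed.

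The genes of the system did not vary as 1 block. Over the 19 arrays, the 28 pairs among the brightest probe sets of the 8 tested genes had a median Pearson's r of 0.0475, given as a description. The highest was that of IGF1R and IGF2R, at 0.778 (rho 0.781), which was 0.699 without the 2 arrays farthest from the median of IGF1R and 0.591 for deviations from the group means. The lowest, IGF2 and IGFBP6 at -0.565, was 0.124 without the 2 arrays farthest from the median of IGF2. The IGF1R probe set in these pairs, S1, was above 3 on 9 of the 19 arrays, and the other IGF1R probe set differed between groups in the opposite direction. Arrays share their normalization, and these correlations have no test.

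Among 9726 probe sets with 1 gene symbol, those of 5 other genes were most like the IGFBP3 S2 probe set over the 19 arrays. These were CYBRD1, a membrane ferric reductase (r = 0.894), PCOLCE, a helper of procollagen processing (r = 0.880), STEAP3, a metal reductase (r = 0.858), FLNA, the actin crosslinker filamin A (r = 0.838), and TLN1, the integrin linker talin 1 (r = 0.816). CYBRD1 and PCOLCE were higher in large than in small healthy follicles by 0.97 and 0.82 (adjusted p = 0.00914 and 0.0161), below 2-fold. STEAP3, FLNA and TLN1 had differences of 0.49, 0.52 and 0.35 that did not pass. All 5 were chosen by likeness over these same arrays, large and small, so their differences are not independent of that of IGFBP3. For deviations from the group means, r was 0.768 for CYBRD1, 0.802 for PCOLCE, 0.883 for STEAP3, 0.801 for FLNA and 0.676 for TLN1.

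The wider pathway was read from 7 lists of other genes: relatives of the ligands, receptors and binding proteins, proteases of the binding proteins with their inhibitors, IRS to mTOR signalling, the RAS and MAPK branch, receptor adaptors and brakes, imprinted genes and regulators of IGF2, and the CCN family. Between large and small healthy follicles 0 of the 51 tested genes were called by limma on any probe set, beside 0.896% of all 7366 tested genes. Of the 51, 18 had an unadjusted p under 0.05, beside 27.5% of all genes, and 2 were higher at the adjusted p, beside 2.96%. CCN5, a secreted relative of the binding proteins by its first domain, averaged 3.40 ± 0.22 in large (SD, n = 4) and 2.69 ± 0.16 in small healthy follicles (SD, n = 10; difference 0.71, adjusted p = 0.00321). It was above 3 on all 4 large and on 0 of 10 small healthy arrays, so it too was tested only because of the group in which it was high. MEG3, a noncoding RNA of an imprinted locus, averaged 7.53 ± 0.28 in large (SD, n = 4) and 6.81 ± 0.33 in small healthy follicles (SD, n = 10) on 1 of its 5 probe sets (difference 0.72, adjusted p = 0.0396).

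In the lists' order, the genes with the smallest p in large follicles that did not pass were led by INS, the insulin gene, with a difference of -0.23 near the detection limit (adjusted p = 0.0795). The protease ADAMTS1 differed, on the less bright of its probe sets, by 0.73 (adjusted p = 0.0744) and the IGFBP protease HTRA1 by 0.29 (adjusted p = 0.142). PIK3CA, the catalytic subunit of PI3 kinase, differed by 0.39 (adjusted p = 0.0807), and the translation repressor EIF4EBP1 by 0.51 (adjusted p = 0.112). The small GTPase NRAS differed by -0.38 (adjusted p = 0.0726), the adaptor SHC1 by 0.23 (adjusted p = 0.188) and the cytokine signalling brake SOCS2 by 0.40 (adjusted p = 0.0962). NNAT, an imprinted gene, differed by -0.90 on 1 of its probe sets (adjusted p = 0.0746).

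In atretic follicles 0 of 49 tested pathway genes were called by limma, beside 4.67% of all 7351 tested genes, and 26 had an unadjusted p under 0.05, beside 50.8%. At the adjusted p 10 were higher and 10 lower, beside 18.3% and 19.1% of all genes. The insulin receptor INSR averaged 6.70 ± 0.39 (SD, n = 5) in atretic and 5.76 ± 0.52 (SD, n = 10) in small healthy follicles on its brighter probe set (difference 0.94, adjusted p = 0.0111), and the difference on the other was 0.73 (adjusted p = 0.0127). IGFBP7, a relative with low affinity for IGFs, averaged 11.9 ± 0.11 in atretic (SD, n = 5) and 11.7 ± 0.11 in small healthy follicles (SD, n = 10; difference 0.21, adjusted p = 0.0367).

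Of the 6 tested proteases and inhibitors, ADAMTS1 (0.88 and 0.92, adjusted p = 0.00335 and 0.00453) and the lysosomal protease CTSD (0.54, adjusted p = 0.00677) were higher in atretic follicles, and ADAM12, an IGFBP3 and IGFBP5 protease, was lower (-0.51, adjusted p = 0.0291). Each list count here stands beside 18.3% of all tested genes higher and 19.1% lower at the adjusted p. Of 15 tested genes from IRS to mTOR, 3 were higher and 4 lower. The kinase AKT2 was higher (0.42, adjusted p = 0.0102), as were the transcription factor FOXO4 (0.74, adjusted p = 0.0117) and the mTOR inhibitor TSC1 (0.70, adjusted p = 0.0135). Among the 4 lower genes was the cap-binding protein EIF4E (-0.52, adjusted p = 0.00803). Of 10 tested genes of the RAS and MAPK branch 1 was higher and 2 lower: the kinase MAP2K2 was higher on 1 of its probe sets (0.27, adjusted p = 0.0458), and NRAS and the kinase MAP2K1 were lower (-0.54 and -0.29, adjusted p = 0.00390 and 0.0196). Of 9 tested imprinted genes and regulators 2 were higher and 3 lower, among them MEG3 (-0.73 on 1 of its 5 probe sets, adjusted p = 0.00903) and GNAS (-0.24 on its brightest probe set, adjusted p = 0.0111). Between rounded and columnar follicles 0 of the 51 pathway genes passed, and 1 had an unadjusted p under 0.05, beside 2.59% of all genes.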

How the data were processed

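Biotin-labelled RNA of thecal tissue was hybridised to 19 Affymetrix bovine arrays. The authors ran RMA and quantile normalization in Partek (version 6.5 by the submitters' processing notes) and deposited log2 signals with 1 decimal; no source used here says whether the 19 arrays entered 1 normalization. No depth exists for arrays, whose number limits the precision. Groups came from the sample titles. Probe sets were named through the platform annotation: 13317 had 1 gene symbol, 86 several and 10724 none, and all 20 IGF probe sets kept their symbol by gene ID in a newer gene table. IGF members, pathway lists and marker lists were chosen with earlier results of these data known.

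Probe sets with a log2 signal over 3 for 50% or more of the arrays in any follicle group compared were tested, without the 111 control probe sets. limma 3.58.1 under R 4.3.3 compared large with all small healthy arrays, atretic with all small healthy arrays, and rounded with columnar arrays in a fit that also held the large ones, and all 4 groups were also put in 1 fit. P-values were adjusted by Benjamini-Hochberg over all tested probe sets. Single values were compared by exact permutation tests, two-sided. The fits were tested on simulated data. Named genes were all 10 members, of each pathway list the called genes or else those with the smallest p, and the 5 genes most correlated with a called member; further pathway genes that passed were named after their values were seen. Alternatives covered the filter, control probe sets, the test, the fold limit, the samples fitted, normalization, array weights, the variance model, a replicate block, and single arrays or groups left out. Replicate numbers were not taken to pair the arrays: no source ties them to an animal, and deviations of 27 same-numbered pairs correlated at -0.343 to 0.569, with 10 of the 27 above 0.1. No arrays held identical values.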

Additional observations from a re-analysis of the deposited data

Results flagged for a closer look

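In 80 groups of 4 or 5 arrays (4 follicle groups for each of the 20 IGF probe sets), 6 held an array that stood far from the others of its group. Chance alone gives about 1 in 20, a rate that makes no allowance for ties between values with 1 decimal. Nor does it allow for probe sets that share arrays, so the count is a description. IGF2 on its brightest probe set read 10.9 on atretic 2, where the other atretic arrays read 9.7 to 9.9. The other 5 lie below the detection limit of 3. IGF1 on its A1 probe set read 2.7 on rounded 4, against 2.3 to 2.4 on the other rounded arrays. PAPPA on its S1 probe set read 2.4 on large 1, against 2.0 on the other large arrays, and 2.0 on rounded 1, against 2.4 to 2.5 on the other rounded arrays. PAPPA on its A1 probe set read 2.0 on large 3, against 2.2 on the other large arrays, and 2.0 on rounded 3, against 2.3 to 2.4 on the other rounded arrays.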

How the results depend on the processing

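Between large and small healthy follicles the count of 2 called IGF probe sets, both of IGFBP3 (S2 and then S1 in each pair of values here), was 0 with the unmoderated test named by the study's methods (differences 1.02 and 1.20, adjusted p = 0.0528 and 0.0588), against rounded follicles alone (1.03 and 1.15, adjusted p = 0.223 and 0.272), against columnar follicles alone (1.01 and 1.25, adjusted p = 0.0779 and 0.0799), without large 2 and columnar 1 (0.78 and 0.83, adjusted p = 0.0930 and 0.0850), and without large 2 and large 3 (0.84 and 0.82, adjusted p = 0.103 and 0.129), a setting chosen after seeing the data for their CYP19A1. With array weights it was 1, since the S2 probe set had a difference of 0.97, just under 2-fold. With 1 array left out in turn the count ran from 0 to 2, the lowest without large 2, and the differences of IGFBP3 ran from 0.76 to 1.19 on the S2 probe set and from 0.80 to 1.37 on the S1 probe set. The count fell in 7 of these 14 repeats, with the S2 probe set losing its call in 6 and the S1 probe set in 2. The settings that leave out arrays or a group fit fewer arrays, and for the others the cause was not tested. IGFBP3 kept its direction under all 28 alternatives. The study's own ANOVA listed both IGFBP3 probe sets as higher in large follicles, so the unmoderated test run here on the deposited values did not reproduce those calls. The study also measured IGFBP3 by quantitative RT-PCR, which was not used here. With no limit on the fold change, 2 IGF probe sets passed in place of 0 in atretic follicles, IGFBP5 and IGF1R. IGF1R lost its place there in 15 of 27 alternatives and IGFBP5 in 2 of 27. In rounded against columnar follicles 0 were called in all 25 alternatives.

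The replicate numbers are not known to pair the arrays, and with the replicate number as a block the IGFBP3 differences were 1.08 and 1.26 (adjusted p = 0.0226 and 0.0231), with 2 IGF probe sets called, and 0 in the other comparisons.

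Signals under 3 (IGFBP2, PAPPA) or near 3 (IGF1R, IGFBP5) are close to background, where a fold change is understated, and the deposited values carry 1 decimal. Large and atretic groups hold 4 and 5 arrays, and their number limits the precision.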
